A study of Homo sapiens with 8 samples.

Results

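The clustered histone genes were followed in MV4-11 cells, a human acute myeloid leukemia (AML) line with FLT3-ITD and MLL-AF4, after CDK4/6 and LSD1 inhibition. Members were the rows whose symbol, in the older naming, places them in a HIST1, HIST2, HIST3 or HIST4 locus and in the H1, H2A, H2B, H3 or H4 class. This rule found 73 of the 26364 rows of the expression table, 6 for H1, 18 for H2A, 20 for H2B, 14 for H3 and 15 for H4. Of these, 44 reached 1 TPM, a read count scaled for gene length and library size, in 2 or more of the 8 libraries, 3 for H1, 12 for H2A, 14 for H2B, 8 for H3 and 7 for H4, and only these were tested. RNA-seq was available for 4 groups of 2 libraries each, all of the same line: vehicle (DMSO), the LSD1 inhibitor tranylcypromine at 5 µM (TCP), the CDK4/6 inhibitor palbociclib at 0.5 µM (Palbo), and both drugs together (PTCP), collected on day 4. Treatment lasted 4 days. By the study's methods, cells given both drugs had palbociclib alone for 1 day and then both for 3 days. The study's methods describe culture of AML lines on HS-5 stromal cells, a human fibroblast line, which the labels of these libraries do not mention. Nothing in the labels says that the 2 libraries of a group came from separate cultures, so p-values measure only the spread between these libraries, which may be technical.

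Histones package DNA into nucleosomes. An octamer of the core histones H2A, H2B, H3 and H4 is wrapped by DNA, and the linker histone H1 binds where DNA enters and leaves it. Most clustered genes are read during S phase, when new DNA must be packaged, and their mRNAs normally end in a short stem-loop bound by SLBP rather than in a poly(A) tail. Some members can also give longer, polyadenylated transcripts when cells leave the cycle. CDK4/6 drive the step from G1 into S phase. The libraries were made with a kit that selects poly(A) RNA, so the values describe the polyadenylated or carried-over part of these transcripts and not the whole histone mRNA pool.

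The stem-loop was looked for in the reference sequence, since the usual histone mRNA ends in it. A 16-base histone stem-loop motif was present within 150 bases after a stop codon in 64 of the 67 protein-coding members found in the GENCODE annotation of GRCh37, against 67 of all 20048 protein-coding genes there (0.334%). It was present in 6 of 6 H1, 17 of 17 H2A, 15 of 16 H2B, 13 of 14 H3 and 13 of 14 H4 genes. The members whose transcripts rose and the member whose transcript fell carried it alike. They are shown with 5 bases on each side and the motif in capitals, the first 3 from genes that were higher under PTCP and the last from the one that was lower:
HIST1H2BK: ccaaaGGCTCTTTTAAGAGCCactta
HIST2H2BE: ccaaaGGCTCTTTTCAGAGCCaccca
HIST1H2BC: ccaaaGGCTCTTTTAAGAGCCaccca
HIST1H2BH: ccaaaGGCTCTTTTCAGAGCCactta
The motif lay 36 bases after the stop codon in HIST1H2BK (chr6:27114145-27114160, minus strand), 56 bases in HIST2H2BE, 36 in HIST1H2BC and 23 in HIST1H2BH. A match in these letters does not say how the end of an mRNA was made in these cells.

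Beyond the stem-loop, the annotation held few bases for most members, such as 5 for HIST1H2BK and HIST1H2BH. It held 1729 for HIST2H2BE, whose single exon runs from chr1:149856009 to 149858232. HIST2H2BE was not alone in this. Counted along the genome to the furthest annotated end, the distance was 769 bases for HIST1H3H, 7522 for HIST1H4H and 12747 for HIST1H2BD. It was 37155 for HIST1H2BC and, among genes not called, 14432 for HIST1H2AC and 22592 for HIST3H2A. For HIST1H2BK the annotated gene holds 495 bases. The length over which the authors counted a gene could be estimated, because, after libraries were put on 1 scale, the TPM of each of the 44 tested members were multiples of 1 step for that gene, each within 0.02 reads of a whole number. Of the 41 tested core histone genes, 5 were counted over more than 650 bases: HIST1H2BK (861 bases), HIST1H2BD (884), HIST1H3D (945), HIST2H2BF (1095) and HIST2H2BE (2281). The other 36 were counted over 363 to 597 bases. The 650-base limit was chosen after the values were seen.

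Under PTCP all 5 of the longer genes had a log2 fold change over DMSO above 0, with a median of 1.40, and 4 were called higher. For the 36 shorter genes the median was 0.29, with 6 called higher and 1 lower. The 3 tested H1 genes were left out of this split, although they were counted over 751 to 811 bases. Of these 3, 1 was above 0 and 0 were called, with a median of -0.37. Over all rows tested, 5.87% were called higher and 7.82% lower under PTCP, with a median of -0.22. These lengths describe the annotation used for counting and not the transcripts present.

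Clustered histone transcripts were scarce overall and dominated by 1 gene. Summed over the 73 members, the level was 179 and 180 TPM in the DMSO libraries, 257 and 213 in TCP, 402 and 528 in Palbo, and 551 and 661 in PTCP. Both libraries of every treatment lay above both DMSO libraries. The sum was 1.31 times that of DMSO under TCP, 2.59 times under Palbo and 3.38 times under PTCP. With 2 libraries against 2, the two-sided exact permutation p was 0.333 for each, which is the smallest the design allows. HIST1H2BK, a gene for H2B, made up most of the difference under Palbo and PTCP, but not under TCP: without it the ratios were 1.28 for TCP, 1.42 for Palbo and 1.94 for PTCP.

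**Figure D1:**
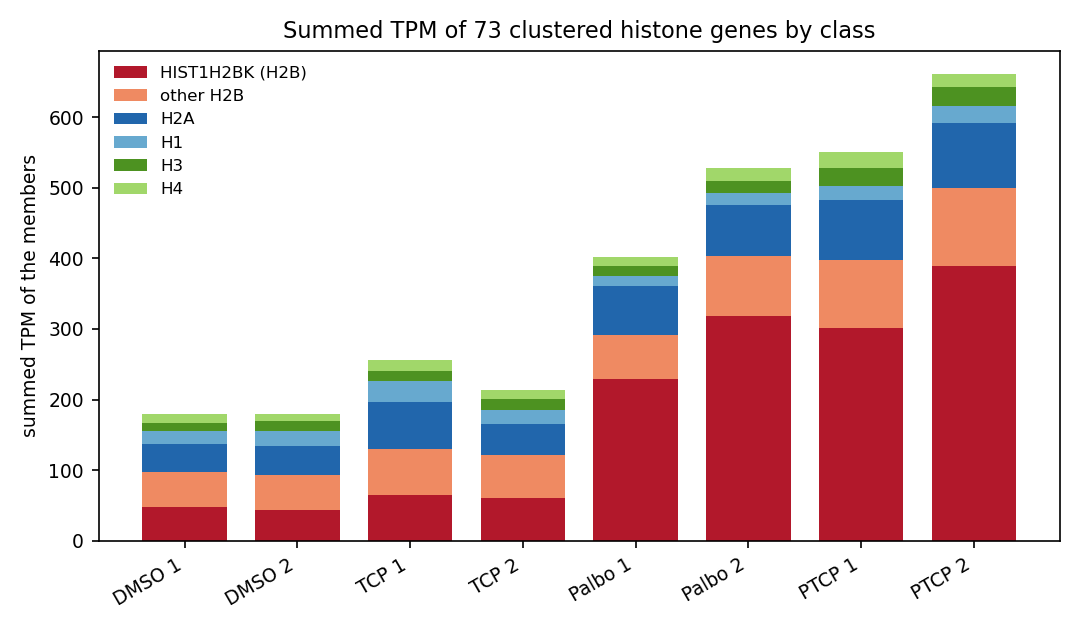
Summed TPM of the 73 clustered histone genes (y axis, linear, from 0) in each of the 8 libraries (x axis), stacked by histone class with HIST1H2BK drawn apart from the other H2B genes. The total goes from 179 and 180 TPM in DMSO to 551 and 661 TPM in PTCP, and HIST1H2BK alone goes from 47.5 and 43.3 to 302 and 389 TPM.

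The class sums did not move in step, and HIST1H2BK held much of the H2B gain. Without it, the H2B sum was 1.47 times DMSO under Palbo and 2.08 times under PTCP. The ratios were 1.75 and 2.17 for H2A, 1.26 and 2.08 for H3, and 1.28 and 1.78 for H4. H2B genes held 54.0 and 51.9% of the summed TPM in DMSO, 72.5 and 76.4% in Palbo and 72.3 and 75.5% in PTCP. Their sum went from 96.7 and 93.4 TPM in DMSO to 398 and 499 TPM in PTCP, and the 19 H2B genes other than HIST1H2BK went from 49.1 and 50.1 to 96.1 and 111 TPM. H2A genes summed to 40.0 and 41.2 TPM in DMSO, 69.7 and 72.6 in Palbo and 84.3 and 92.2 in PTCP. The H3 sum was 10.9 and 13.9 TPM in DMSO and 25.4 and 26.3 in PTCP, and the H4 sum 12.4 and 10.7 against 22.2 and 18.9. For the linker histones, the H1 sum was 18.9 and 20.7 TPM in DMSO, 14.2 and 17.8 in Palbo and 20.7 and 24.8 in PTCP. Palbo thus lay below DMSO and PTCP overlapped it. Most of the H1 sum was HIST1H1C, whose own Palbo libraries overlapped DMSO. The class sums are levels without a test, since members are not replicates.

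Few members were abundant. Only 12 of the 73 had a mean of at least 5 TPM over the 8 libraries, and 6 of at least 10 TPM. HIST1H2BK had the highest mean (182 TPM), followed by HIST1H2AC (24.0), HIST1H1C (18), HIST2H2BE (15.8), HIST1H2BD (14.2) and HIST3H2A (11.1). At least 1 TPM in both libraries was reached by 26 members in DMSO, 33 in TCP, 27 in Palbo and 29 in PTCP. Among the 29 members that did not pass, none had a mean above 0.866 TPM, and 5 were at 0 in all libraries. The 4 members recalled as restricted to testis, HIST1H1T, HIST1H2AA, HIST1H2BA and HIST3H3, were all in this set, and their sum was at most 0.452 TPM in any library. Of the rest of the set, 3 pairs (HIST2H2AA3 and HIST2H2AA4, HIST2H3A and HIST2H3C, HIST2H4A and HIST2H4B) held identical values in every library and are near-identical copies, so their values are uncertain.

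Tests were made across all 14151 rows that reached 1 TPM in 2 or more libraries, with limma on log2(TPM + 1). Calls needed a change of 1 or more on the log2 scale, in either direction, together with a Benjamini-Hochberg adjusted p under 0.01, the limits the study states. On this scale fold changes of low genes are understated. TPM sum to the same total in every library, and the median log2 fold change over all tested rows was -0.16 for Palbo and -0.22 for PTCP against DMSO, with lysozyme (LYZ) alone at 26590 and 28620 TPM in the PTCP libraries against 278 and 770.5 in DMSO. Counts of all rows higher and lower were 643 and 645 for Palbo and 830 and 1107 for PTCP, and became 838 and 395, and 1127 and 662, once libraries were set to a median ratio of 1. Every member call named here kept its direction under that scaling. One read of a 500-base gene was worth 0.160 to 0.263 TPM, depending on the library, so that genes near 1 TPM rest on a handful of reads.

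Palbociclib alone raised 4 of the 44 tested members and lowered 1 against DMSO. This is 9.09% higher beside 4.54% of all tested rows, and 2.27% lower beside 4.56%. The members that rose were HIST1H2BK and HIST2H2BE (H2B), HIST1H3H (H3) and HIST1H2AI (H2A), and the one that fell was HIST1H2BH (H2B). With both drugs, 10 members were higher and 1 lower, 22.7% beside 5.87% of all rows and 2.27% beside 7.82%. By class, PTCP raised 4 of 14 H2B, 2 of 12 H2A, 3 of 8 H3, 1 of 7 H4 and 0 of 3 H1 genes. At an unadjusted p below 0.05, either way, there were 13 of 44 members under Palbo, beside 53.3% of all rows, and 18 under PTCP, beside 59.2%. The median log2 fold change of the 44 was 0.26 for Palbo and 0.39 for PTCP. Both libraries lay above both DMSO libraries for 16 members under Palbo (36.4%, beside 26.5% of all tested rows) and for 23 under PTCP (52.3%, beside 26%), and below them for 7 (15.9%, beside 49.7%) and 5 (11.4%, beside 54.2%). Palbo and PTCP were both set against the same DMSO libraries.

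**Figure D2:**
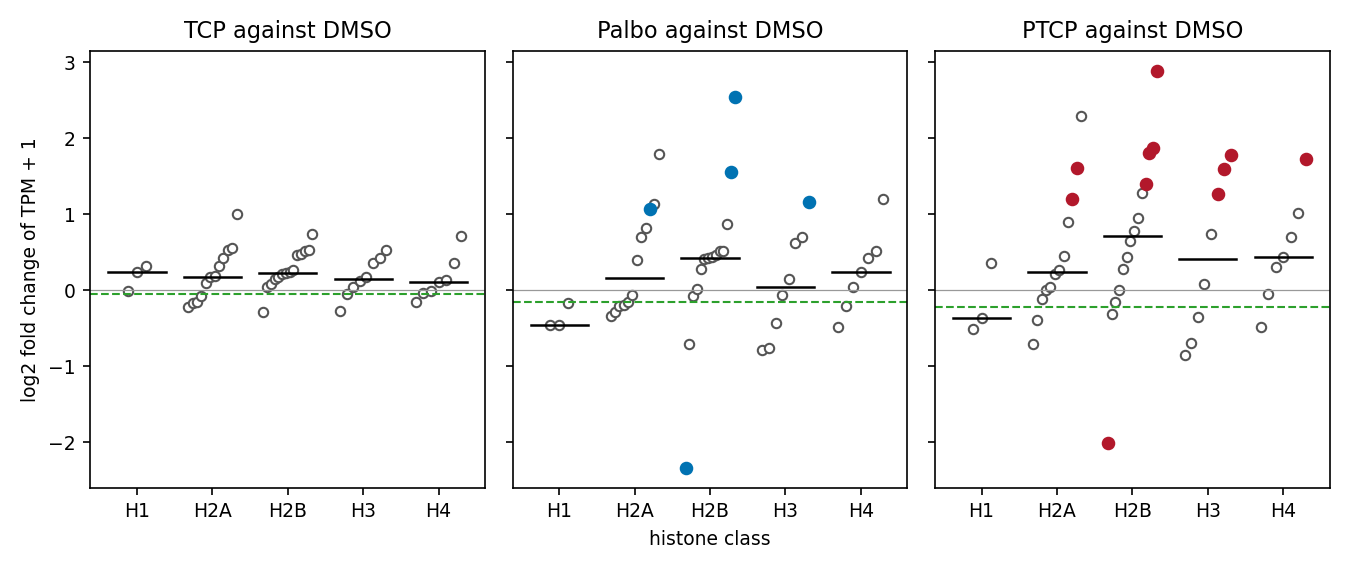
Log2 fold change of TPM + 1 against DMSO (y axis) for the 44 tested clustered histone genes by class (x axis), in TCP, Palbo and PTCP; filled points were called, black bars are class medians and the dashed green line is the median of all 14151 tested rows. The H2B class holds both the highest value under PTCP, HIST1H2BK at 2.89, and the lowest, HIST1H2BH at -2.00.

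The H2B genes held the largest changes in both directions. HIST1H2BK (H2BC12 in current naming, chr6:27114140-27114634, minus strand) was at 47.5 and 43.3 TPM in DMSO, 64.8 and 61.1 in TCP, 229 and 319 in Palbo and 302 and 389 in PTCP. Palbo and PTCP libraries were well apart from the others and did not overlap them. The log2 fold change was 2.55 ± 0.18 (SE) for Palbo (limma adjusted p = 0.000137) and 2.89 ± 0.18 for PTCP (adjusted p = 4.91e-05).

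HIST2H2BE (H2BC21, chr1:149856009-149858232, minus strand), an H2B gene of the HIST2 cluster, was at 6.67 and 6.72 TPM in DMSO, 8.46 and 6.92 in TCP, 18.9 and 24.7 in Palbo and 25.6 and 28.7 in PTCP. Its log2 fold change was 1.55 ± 0.15 for Palbo (adjusted p = 0.000447) and 1.87 ± 0.15 for PTCP (adjusted p = 0.000131). As for HIST1H2BK, all 4 palbociclib-treated libraries were above all 4 others.

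HIST1H2BC and HIST1H2BD, 2 further H2B genes, were called against DMSO for PTCP and not for Palbo, and the difference between PTCP and Palbo passed for neither. HIST1H2BC was at 3.61 and 5.24 TPM in DMSO, 5.26 and 4.64 in TCP, 5.40 and 13.95 in Palbo and 15.65 and 19.95 in PTCP. This was a log2 fold change of 1.80 ± 0.37 for PTCP (adjusted p = 0.00625). HIST1H2BD was at 10.0 and 7.34 TPM in DMSO, 14.3 and 7.35 in TCP, 10.9 and 14.8 in Palbo and 22.5 and 26.4 in PTCP (1.40 ± 0.30, adjusted p = 0.00687). For both genes the PTCP libraries lay above all others, and 1 or both Palbo libraries lay close to the DMSO pair.

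HIST1H2BH (H2BC9, chr6:26251842-26252303, plus strand) was the only member called lower in any comparison. Its transcript was at 10.0 and 10.1 TPM in DMSO and 12.3 and 17.6 in TCP, but at 1.45 and 0.959 in Palbo and 1.54 and 2.01 in PTCP. The recovered reads were 35 and 45 in DMSO against 6 and 4 in Palbo and 6 and 8 in PTCP. The log2 fold change was -2.34 ± 0.20 for Palbo (adjusted p = 0.000289) and -2.00 ± 0.20 for PTCP (adjusted p = 0.000288). HIST1H2BH thus changed places with HIST2H2BE: it was the higher of the pair in every DMSO and TCP library and the lower in every palbociclib-treated one.

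**Figure D3:**
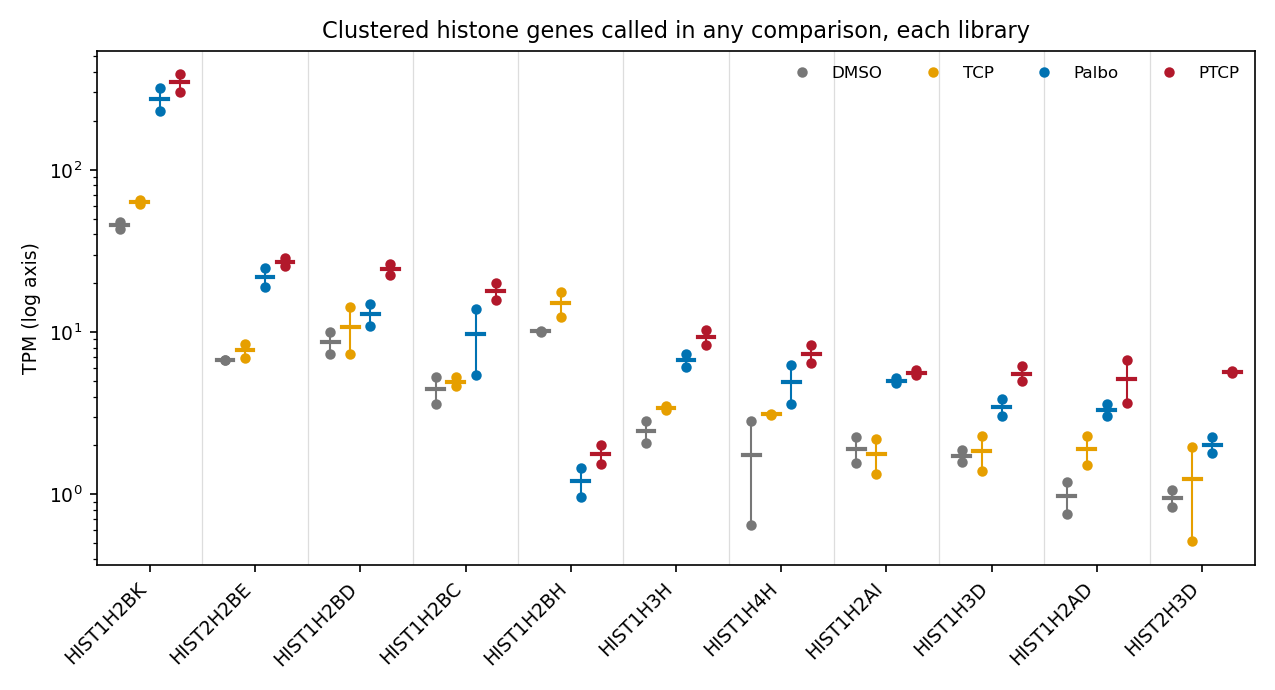
TPM (y axis, log scale) of the 11 members called in any comparison, ordered by mean level, with 1 point per library, a line joining the 2 libraries of a group and a bar at their mean. HIST1H2BK goes from 47.5 and 43.3 TPM in DMSO to 302 and 389 in PTCP, and HIST1H2BH is the one member that goes the other way.

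Among the H2A genes, HIST1H2AI and HIST1H2AD rose from low levels. HIST1H2AI was at 1.56 and 2.24 TPM in DMSO, 2.18 and 1.33 in TCP, 4.83 and 5.21 in Palbo and 5.80 and 5.45 in PTCP, with log2 fold changes of 1.06 ± 0.20 (adjusted p = 0.005) and 1.202 ± 0.20 (adjusted p = 0.00223). HIST1H2AD was at 1.19 and 0.751 TPM in DMSO, 1.51 and 2.30 in TCP, 3.03 and 3.59 in Palbo and 3.63 and 6.69 in PTCP, and passed under PTCP (1.61 ± 0.28, adjusted p = 0.0028). Each rested on few reads in DMSO, 6 and 11 for HIST1H2AI and 5 and 4 for HIST1H2AD.

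The most abundant H2A gene, HIST1H2AC (H2AC6), was not called. It was at 11.1 and 5.78 TPM in DMSO, 22.0 and 5.44 in TCP, 28.3 and 32.5 in Palbo and 43.8 and 42.8 in PTCP. Its libraries under palbociclib were above all others, and the replicates of DMSO and TCP were far apart. The log2 fold change for PTCP was 2.29 ± 0.55, larger in size than for any called member other than HIST1H2BK, with an adjusted p of 0.0114 just outside the limit. It was called higher for PTCP under median-ratio scaling, under quantile normalization, with only the groups compared, and among members with a mean of at least 5 TPM, and also without either TCP library. HIST3H2A was at 10.3 and 10.4 TPM in DMSO, 6.64 and 9.65 in Palbo and 11.0 and 9.88 in PTCP (PTCP 0.01 ± 0.17, adjusted p = 0.977). HIST1H2AG gave 6.59 and 4.23 against 9.61 and 11.99 TPM (0.90 ± 0.30, adjusted p = 0.0379). HIST2H2AC was at 2.78 and 6.57 TPM in DMSO and 1.74 and 2.93 in PTCP (-0.71 ± 0.36, adjusted p = 0.14), with groups that overlapped.

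In the H3 class, which carries most of the studied histone tail marks including those removed by LSD1, 3 genes rose under PTCP. HIST1H3H was at 2.06 and 2.83 TPM in DMSO, 3.52 and 3.30 in TCP, 6.09 and 7.32 in Palbo and 10.3 and 8.34 in PTCP. Its log2 fold changes were 1.17 ± 0.17 for Palbo (adjusted p = 0.00199) and 1.59 ± 0.17 for PTCP (adjusted p = 0.000377). HIST1H3D was at 1.58 and 1.87 TPM in DMSO, 1.39 and 2.29 in TCP, 3.02 and 3.87 in Palbo and 4.96 and 6.13 in PTCP (1.26 ± 0.21, adjusted p = 0.00228). All 3 had every PTCP library above every DMSO and TCP library. HIST2H3D was at 1.06 and 0.838 TPM in DMSO, 1.96 and 0.513 in TCP, 2.25 and 1.78 in Palbo and 5.71 and 5.60 in PTCP (1.77 ± 0.30, adjusted p = 0.00266). At the recovered depth HIST2H3D had 4 and 4 reads in DMSO, 10 and 8 in Palbo and 24 and 24 in PTCP. HIST1H3E, lower by mean level than these 3, was between 0.263 and 1.18 TPM in every library but the second of PTCP, where it was at 3.23. Of the 8 tested H3 genes, 3 lay above both DMSO libraries under Palbo and 3 below, beside 26.5% and 49.7% of all tested rows. Under PTCP 4 lay above and 2 below, beside 26% and 54.2%. HIST1H3B and HIST1H3C were below under both treatments and were not called.

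The H4 class contributed 1 call. HIST1H4H was at 0.650 and 2.82 TPM in DMSO, 3.08 and 3.13 in TCP, 3.58 and 6.26 in Palbo and 6.40 and 8.26 in PTCP. Its log2 fold change for PTCP was 1.72 ± 0.40 (adjusted p = 0.00966), with 2 and 11 reads in DMSO, so the 2 control libraries differed widely. HIST4H4 was at 1.18 and 1.16 TPM in DMSO and 3.17 and 3.62 in PTCP (1.02 ± 0.33, adjusted p = 0.0343), HIST1H4K had a log2 fold change of 0.70 ± 0.46 and HIST1H4I of -0.05 ± 0.38, and none of these passed.

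No linker histone gene was called in any comparison. HIST1H1C (H1-2, chr6:26055968-26056698), the only abundant one, was at 16.11 and 15.95 TPM in DMSO, 25.3 and 16.2 in TCP, 12.6 and 16 in Palbo and 18.6 and 23.2 in PTCP. Its log2 fold changes were -0.16 ± 0.22 for Palbo (adjusted p = 0.574) and 0.35 ± 0.22 for PTCP (adjusted p = 0.211). HIST1H1E was at 1.70 and 2.07 TPM in DMSO and 1.25 and 0.815 in PTCP (-0.51 ± 0.22, adjusted p = 0.0848). HIST1H1B had a log2 fold change of -0.37 ± 0.31, and HIST1H1D, at or below 0.988 TPM in every library, was not tested. HIST1H1D rested on 0 to 8 reads a library: 4 and 8 in DMSO, 6 and 4 in TCP, 0 and 1 in Palbo and 1 and 3 in PTCP. Its Palbo and PTCP libraries lay below both DMSO libraries, a difference that was not tested.

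No member was called under TCP alone: limma called 0 of 44, beside 0.0565% of all rows higher and 0% lower. At an unadjusted p below 0.05 there were 3 of 44, HIST3H2A, HIST1H2BK and HIST1H2BH, beside 8.77% of all rows. Their log2 fold changes were 0.53 ± 0.17, 0.46 ± 0.18 and 0.51 ± 0.20, all above 0, with adjusted p of 0.391, 0.497 and 0.525. The median of the 44 was 0.18, beside -0.04 over all rows. Both TCP libraries lay above both DMSO libraries for 12 members (27.3%, beside 12.4% of all rows) and below them for 3 (6.82%, beside 22.3%). The 12 include HIST2H2AB, at 1.71 and 1.74 TPM in TCP and at most 0.952 TPM elsewhere. It passed the filter only through the TCP libraries.

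Whether TCP added to palbociclib was asked in 2 ways. Between PTCP and Palbo 0 of 44 members were called, beside 0.459% of all rows higher and 0.0424% lower. Of the 44, 9 had an unadjusted p below 0.05, beside 17.5% of all rows. HIST2H3D had the largest difference, 1.15 ± 0.30 on the log2 scale with an adjusted p of 0.103. For HIST1H2BK the difference was 0.34 ± 0.18 (adjusted p = 0.379) and for HIST2H2BE 0.31 ± 0.15 (adjusted p = 0.352). The interaction of the 2 drugs was called for 0 of 44 members and 0% of all rows in either direction, with 2 members, HIST2H3D and HIST1H2AE, and 6.39% of all rows at an unadjusted p below 0.05. HIST1H2BK had an interaction of -0.12 ± 0.25 and HIST2H3D of 1.03 ± 0.43 (adjusted p = 0.998 and 0.775). Against TCP alone, PTCP raised 7 members (15.9%, beside 5.46% of all rows) and lowered 1 (2.27%, beside 6.7%). Those higher were HIST1H2BK (2.43 ± 0.18), HIST2H2BE (1.70 ± 0.15), HIST2H3D (1.65 ± 0.30), HIST1H2BC (1.65 ± 0.37), HIST1H2AI (1.28 ± 0.20), HIST1H3H (1.22 ± 0.17) and HIST1H3D (1.22 ± 0.21), and HIST1H2BH was lower (-2.51 ± 0.20).

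The members called lay in the HIST1 and HIST2 clusters. Of the 44, 36 lie in the HIST1 cluster on chromosome 6 (annotated members between 25723625 and 27861669 of GRCh37), 6 in HIST2 on chromosome 1, 1 in HIST3 on chromosome 1 and 1 in HIST4 on chromosome 12. Under PTCP, 8 of the 36 HIST1 members and 2 of the 6 HIST2 members were higher, beside 5.87% of all tested rows. Many H2A and H2B genes sit head to head and are read in opposite directions from a shared start region. With starts within 1000 bases, 12 such pairs were found, 11 of them an H2A with an H2B gene, and 8 had both partners tested. Under PTCP no pair had both partners called, 5 had 1 and 3 had none.

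The partners could differ widely. HIST1H2BK and HIST1H2AH have 250 bases between their starts, and their log2 fold changes under PTCP were 2.89 ± 0.18 and -0.39 ± 0.30. HIST1H2AH was near 1 TPM, with 4 and 5 reads in DMSO and 4 and 1 in PTCP. HIST2H2BE and HIST2H2AC have 235 bases between them and gave 1.87 ± 0.15 and -0.71 ± 0.36. HIST1H2BC and HIST1H2AC, 218 bases apart, went the same way with 1.80 ± 0.37 and 2.29 ± 0.55. The authors' strand setting is not given in the sources used here, so reads of overlapping transcripts on opposite strands may not have been separated. The difference between partners was not tested.

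**Figure D4:**
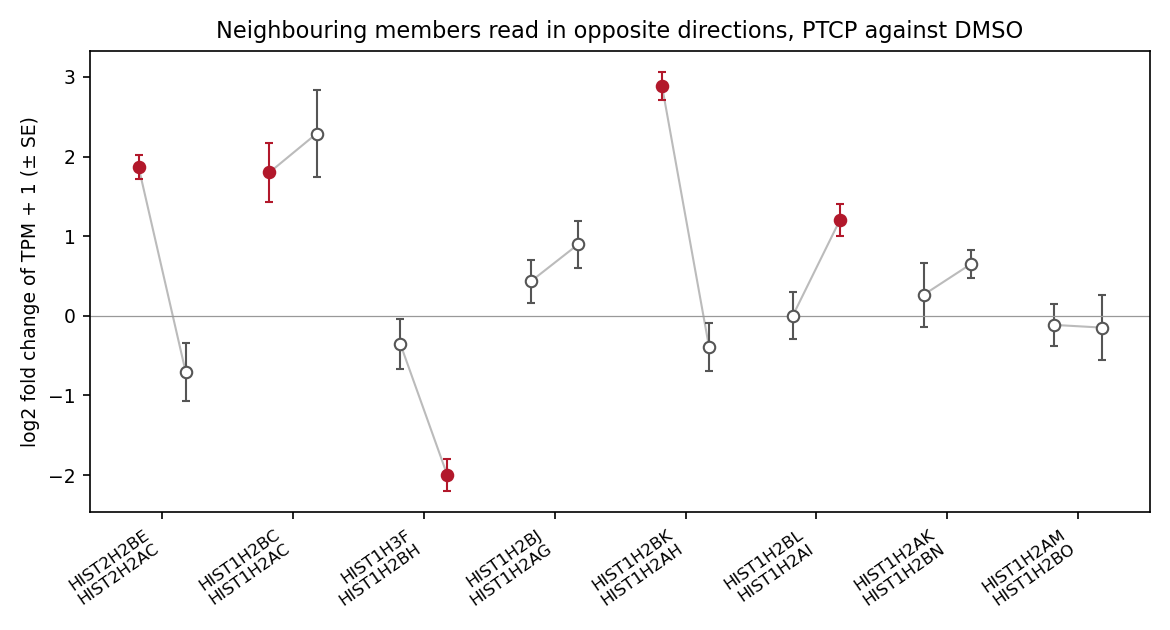
Log2 fold change of TPM + 1 for PTCP against DMSO (y axis; bars are ± SE) for both partners of the 8 neighbouring pairs with both genes tested (x axis, minus-strand gene on the left and first in the label). Filled red points were called; HIST1H2BK at 2.89 stands beside HIST1H2AH at -0.39, and HIST2H2BE at 1.87 beside HIST2H2AC at -0.71.

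Core promoters were compared because octamer, CCAAT and TATA elements are known features of histone genes. The window was 250 bases before to 50 after the start from RefSeq (GRCh38.p14), and 65 of the 73 members had one. The octamer ATTTGCAT, a site of Oct-1, was found on either strand in 14 of 18 H2B and 11 of 16 H2A promoters, 1 of 12 H3, 0 of 6 H1 and 0 of 13 H4, against 2.19% of all promoters. CCAAT was found in 55 of the 65 (39.7% of all promoters), but in 3 of 13 H4, and TATAAA in 44 of 65 (14% of all). The largest changes in both directions came from H2B genes with the same octamer, shown 5′ to 3′ on the gene's strand with octamer, CCAAT and TATAAA letters of either strand in capitals. The 250 bases before the start are chr6:27146856-27147105 (minus) for HIST1H2BK, chr1:149886683-149886932 (minus) for HIST2H2BE, both higher, and chr6:26251364-26251613 (plus) for HIST1H2BH, which was lower:
HIST1H2BK: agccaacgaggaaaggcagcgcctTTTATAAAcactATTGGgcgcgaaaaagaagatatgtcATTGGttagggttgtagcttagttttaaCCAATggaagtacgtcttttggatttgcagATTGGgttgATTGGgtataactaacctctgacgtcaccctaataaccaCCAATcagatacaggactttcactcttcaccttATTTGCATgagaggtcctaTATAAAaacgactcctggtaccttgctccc
HIST2H2BE: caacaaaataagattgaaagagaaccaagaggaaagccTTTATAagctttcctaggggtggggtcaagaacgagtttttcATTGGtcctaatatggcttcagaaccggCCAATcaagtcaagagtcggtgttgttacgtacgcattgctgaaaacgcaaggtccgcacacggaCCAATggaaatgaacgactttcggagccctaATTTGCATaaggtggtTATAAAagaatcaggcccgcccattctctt
HIST1H2BH: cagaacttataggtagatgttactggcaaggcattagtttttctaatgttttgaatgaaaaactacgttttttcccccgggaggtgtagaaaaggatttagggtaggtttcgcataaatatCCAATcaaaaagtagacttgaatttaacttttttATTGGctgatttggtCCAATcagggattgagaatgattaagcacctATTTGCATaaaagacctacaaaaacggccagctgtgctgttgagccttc
Motif counts used the whole window, and the printed stretches end at the base before the start site. The octamer started 49 bases before the start site in HIST1H2BK and HIST1H2BH and 46 bases before it in HIST2H2BE. A TATAAA match lay 30 bases before the start in both genes that rose, and there was no match in the HIST1H2BH window. Among tested members with a promoter, 5 of 19 with the octamer were higher and 1 lower under PTCP, against 5 higher and 0 lower of 22 without it, with medians of 0.77 and 0.31 on the log2 scale. With TATAAA 8 of 25 were higher and 0 lower (median 0.74), and without it 2 of 16 were higher and 1 lower (median 0.15). The shares of all tested rows were 5.87% higher and 7.82% lower. These are descriptions of letters in a window.

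Genes tied to S phase and histone supply were described from lists by their counts and medians. All 14 S phase reference genes, which copy DNA or mark cycling cells, were lower under PTCP (median log2 fold change -1.62) and 10 of 14 under Palbo (-1.08), with 0 under TCP (-0.11). The shares of all tested rows that were lower were 7.82% under PTCP, 4.56% under Palbo and 0% under TCP. Cyclin A2 (CCNA2), the CDK partner of S phase, went from 136 and 147 TPM in DMSO to 32.4 and 34.6 in PTCP (-2.05 ± 0.10, adjusted p = 2.88e-05). CDC45 (-1.79 ± 0.12) and TOP2A (-1.79 ± 0.11), which act at the replication fork and in DNA untangling, followed. MKI67, a marker of cycling cells, had -1.69 ± 0.26 under PTCP. Its Palbo call (-1.17 ± 0.26, adjusted p = 0.0099) was lost in 6 of 10 alternatives and in 7 of 8 fits with a library left out. A change in the number of cycling cells and a change in RNA per cell cannot be told apart in bulk RNA.

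Histone chaperones, which carry histones to DNA, were lower for 7 of 22 genes under PTCP (median -0.84) and 3 under Palbo (-0.52), with none higher. Over all tested rows, 7.82% were lower under PTCP and 4.56% under Palbo. CHAF1B, a subunit of the CAF-1 complex that deposits H3 and H4 on new DNA, was at 24.9 and 30.2 TPM in DMSO and 7.59 and 7.90 in PTCP (-1.70 ± 0.16, adjusted p = 0.000207). NASP, which holds the soluble H3 and H4 pool, had -1.51 ± 0.08, HJURP, the chaperone of CENPA, -1.50 ± 0.08, and SSRP1, part of the FACT complex, -1.28 ± 0.11 under PTCP.

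Of the 21 genes of the machinery that transcribes and trims histone mRNA, 2 were lower under PTCP, beside 7.82% of all rows, and 1 under Palbo, beside 4.56%, which are shares near the background. The medians were -0.45 and -0.37. CDK2, the kinase that activates histone transcription through NPAT, was the one lower in both (-1.65 ± 0.13 under PTCP, adjusted p = 0.000106), and CASP8AP2, needed at histone locus bodies, passed under PTCP (-1.06 ± 0.11). The CASP8AP2 call and the Palbo call of CDK2 were both lost under quantile normalization and median-ratio scaling. SLBP, the stem-loop binding protein, was at 155 and 163 TPM in DMSO, 109 and 94.6 in Palbo and 81.3 and 82.5 in PTCP, a log2 fold change of -0.95 ± 0.09 (adjusted p = 0.000229) that fell short of the fold limit. NPAT had -0.78 ± 0.10 (adjusted p = 0.000752), also short of it.

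Replacement and variant histones have genes outside the clusters, and many of these give polyadenylated mRNA. They had a higher summed level than the clustered genes in these poly(A)-selected libraries. The 15 listed genes with a row summed to 3215 and 3381 TPM in DMSO, 2045 and 2051 in Palbo and 1816 and 1984 in PTCP. Of 11 tested, 4 were lower under each of Palbo and PTCP, beside 4.56% and 7.82% of all tested rows. H2AFZ (H2A.Z) was at 1449 and 1509 TPM in DMSO and 536 and 575 in PTCP (-1.41 ± 0.08, adjusted p = 4.64e-05), and CENPA, the centromeric H3, fell by 2.09 ± 0.19 on the log2 scale. Both linker variants H1F0 (-1.37 ± 0.26) and H1FX (-1.39 ± 0.22) were lower as well. The PTCP call of H1F0 was lost with no filter, under median-ratio scaling and without either DMSO or either PTCP library, and that of H1FX without either DMSO library or the first PTCP library. H2AFJ, named after its values were seen, went the other way, at 12.7 and 13.6 TPM in DMSO and 23.4 and 25.1 in PTCP (0.84 ± 0.11, adjusted p = 0.000877), short of the fold limit, and was called higher for PTCP against TCP (1.05 ± 0.11). H3F3B, an H3.3 gene, was at 627 and 568 TPM in DMSO and 480 and 481 in PTCP (-0.31 ± 0.08, adjusted p = 0.012) and was not called.

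The 8 members recalled from general knowledge as giving polyadenylated transcripts outside S phase, HIST1H1C, HIST1H2AC, HIST1H2BC, HIST1H2BD, HIST1H2BK, HIST2H2BE, HIST3H2A and HIST4H4, summed to 107 and 96.0 TPM in DMSO and 442 and 543 in PTCP. HIST1H2BK alone went from 47.5 and 43.3 TPM in DMSO to 302 and 389 in PTCP, which was most of this gain. Of the 8 members, 4 were higher under PTCP and 2 under Palbo, beside 5.87% and 4.54% of all tested rows. All 8 log2 fold changes were above 0 under PTCP, with HIST3H2A at 0.01 and HIST1H1C at 0.35. Under Palbo 6 were above 0 and 2 below, HIST3H2A (-0.33) and HIST1H1C (-0.16). Among the 44 tested members, which include the 8, 22.7% and 9.09% were higher. The median log2 fold changes of the 8 were 1.601 and 0.69, beside 0.39 and 0.26 over the 44. The list was not checked against a source and overlaps the most abundant members.

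**Figure D5:**
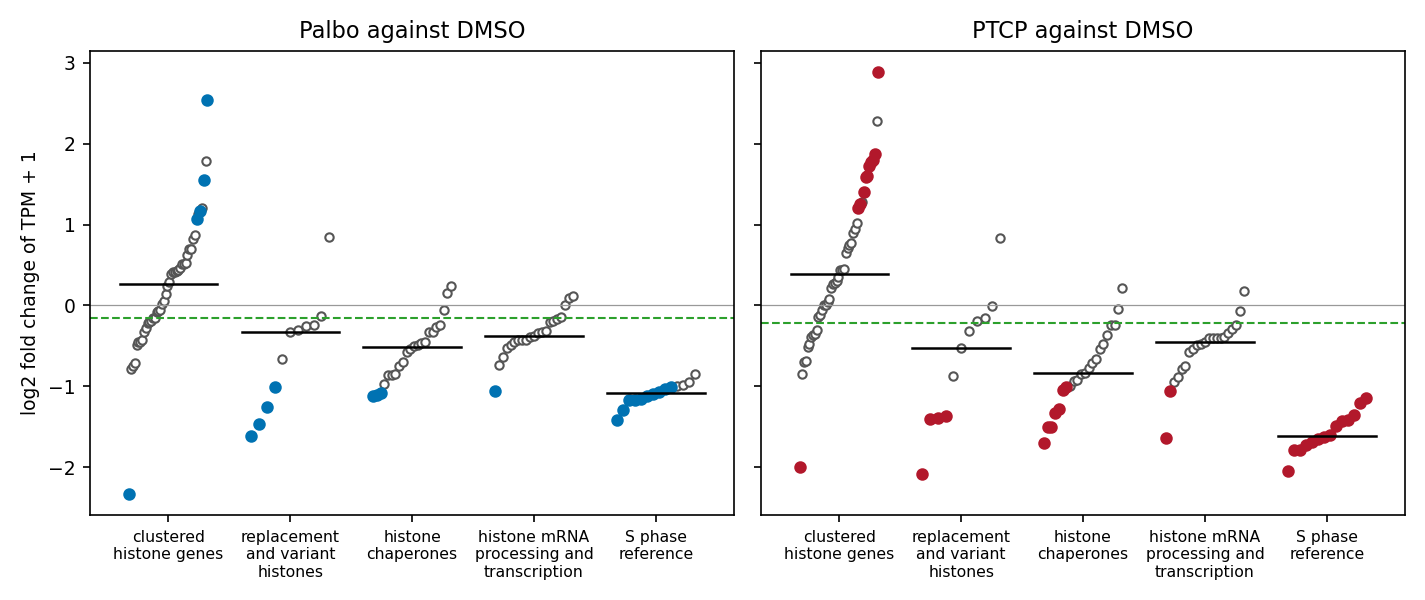
Log2 fold change of TPM + 1 against DMSO (y axis) under Palbo and PTCP for the 44 tested clustered histone genes and the tested genes of 4 lists (x axis); filled points were called, black bars are medians and the dashed green line is the median of all tested rows. All 14 S phase genes lie below 0 in both panels, while clustered histone genes range from -2.00 to 2.89 under PTCP.

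The labelled cell type held: PTPRC, CD33, FLT3, SPI1, MPO and LYZ, markers of myeloid leukemia cells, were all above the filter. Fibroblast markers, which HS-5 cells would bring, summed over 12 genes to 14.0 and 16.1 TPM in DMSO, 18.3 and 22.1 in TCP, 19.8 and 95.2 in Palbo and 26.2 and 32.8 in PTCP. No listed fibroblast gene was at 0 in every library, and 9 of 12 reached 1 TPM in at least 1. The second Palbo library stood apart in these, with COL1A1 at 22.2 TPM against 1.32 in the first. HIST1H2BK was at 229 TPM in the Palbo library with the lower fibroblast sum and at 319 TPM in the one with the higher sum. The part of stromal RNA in the histone values was not tested. Without the second Palbo library, 2 members were called higher under Palbo, HIST1H2BK and HIST2H2BE, and 1 lower, HIST1H2BH.

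Of 24 member calls over all comparisons, 10 held in each of the 10 alternatives and with each of the 8 libraries left out. These were every call of HIST1H2BK, HIST2H2BE and HIST1H2BH and the call of HIST1H3H for PTCP against DMSO. Of the 10 alternatives, 2 only loosened the limits on the same fit, so no call could be lost under them. For the other 14, leaving out at least 1 library ended the call. The PTCP call of HIST1H4H held in 1 of 8 such fits, those of HIST1H2BC and HIST1H2BD in 2 of 8, and the Palbo call of HIST1H2AI in 2 of 8. Under PTCP the count of members higher was 3 without the first DMSO library or without the second PTCP library, HIST1H2BK, HIST1H3H and HIST2H2BE in each case, 4 without the first PTCP library and 6 without the second DMSO library. Under Palbo it was 2 without the first DMSO library.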

How the data were processed

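Poly(A)-selected RNA of MV4-11 cells was sequenced in 8 libraries, 2 for each of DMSO, TCP, Palbo and PTCP. The authors deposited TPM per gene, made by aligning reads to GRCh37 with Subread and counting with featureCounts 1.6.4, and the submitters' notes also name DESeq2 1.26.0 and SAMtools 1.9. The gene annotation, the strand setting and the handling of multi-mapped reads are not given in the sources used here. TPM are not counts, so no count model was used.

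Rows with at least 1 TPM in 2 or more libraries (14151 of 26364) were tested with limma 3.58.1 in R 4.3.3 on log2(TPM + 1), with a mean-variance trend, 1 coefficient per group, all 8 libraries in 1 fit and 4 residual degrees of freedom. Calls needed an absolute log2 fold change of 1 and an adjusted p below 0.01. All adjusted p are limma p-values adjusted over all tested rows by the Benjamini-Hochberg method. The code was tested on simulated data. Summed levels were compared with a two-sided exact permutation test. Reads were recovered from the steps of low TPM, within 0.02 reads of a whole number, as a description only, and total depth is not known from TPM.

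Named members were the 4 most abundant of each class and every member called. From each gene list, the 3 called genes with the largest change per treatment were eligible, and SLBP, NPAT, H2AFZ, H3F3B and H1F0 were fixed. HIST2H2BF, HIST1H2AH, HIST1H2AE, HIST2H2AB, HIST1H3B, HIST1H3C and H2AFJ fall outside this rule and were named after their values were seen. The members, lists and tests were chosen with earlier results of these data known. Positions are from the GENCODE annotation lifted to GRCh37, and promoters from RefSeq. Alternatives changed the pseudocount, filter, scaling, replicate block, samples in the fit, variance trend and thresholds, and left out each library in turn.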

Additional observations from a re-analysis of the deposited data

How the results depend on the processing

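No call of a named gene changed direction under any of the 10 alternatives or with any of the 8 libraries left out. Of the 10, 2 only loosened the limits on the same fit and could change no direction. The cause of the shifts below was not tested unless stated. The count of members higher under Palbo (4) became 7 at an adjusted p below 0.05 and lay between 2 and 5 with a library left out. The count higher under PTCP (10) became 6 among the 12 members with a mean of at least 5 TPM, where fewer genes were tested, and lay between 3 and 9 with a library left out. For PTCP against TCP the count higher (7) became 4 with the same filter and 4 with only the groups compared, and lay between 2 and 8 with a library left out, falling to 2 without the first and 3 without the second PTCP library. The count lower in that comparison (1) became 2 at an adjusted p below 0.05. Leaving out a library leaves 1 group with a single library, which is assumed to vary like the others. The summed TPM without HIST1H2BK was 1.42 times DMSO for Palbo and 1.94 times for PTCP. The sum of all members, HIST1H2BK included, was 4.01 times DMSO for PTCP after median-ratio scaling. With a library left out the ratio for all members lay between 1.19 and 1.43 for TCP, 2.24 and 2.94 for Palbo, and 3.07 and 3.69 for PTCP. For PTCP against TCP, rows higher and lower over all genes were 772 and 948, and 987 and 602 after median-ratio scaling.

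The replicate numbers are shared between groups, but the labels do not say what a number marks, and there are only 2 numbers, so pairing was not assumed. Deviations of same-numbered libraries correlated at 0.169 to 0.491 over the 14151 rows for the 6 pairs of groups. With the replicate block, 5 members were higher and 1 lower under Palbo, 11 and 1 under PTCP, 7 and 1 for PTCP against TCP, and 0 under TCP. The members gained were HIST1H2AD for Palbo and HIST1H2AC for PTCP.

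With 2 libraries a group, and few reads for members near 1 TPM, smaller differences between groups could not be resolved.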
